A study of Mus musculus with 11 samples.

Results

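The genes for the contractile apparatus of smooth muscle were followed through a mouse model of asthma exacerbation: Acta2, Actg2, Myh11, Mylk, Cnn1, Smtn, Tagln, Lmod1, Des and Myocd. They were picked by name, not by a threshold on their values, from an RNA-seq table of airway tissue, and all 10 were found among its 21899 genes. The 11 libraries fell into 3 groups. The PBS group (3 libraries) came from BALB/c mice that were neither sensitised nor exposed. The OVA/LPS/Vehicle group (4 libraries, labelled OL) came from mice sensitised to ovalbumin (OVA) with alum, challenged with OVA through the nose, then given the bacterial product lipopolysaccharide (LPS) and a vehicle. The OVA/LPS/GGsTop group (4 libraries, labelled OLG) had the same exposures and received GGsTop, an inhibitor of gamma-glutamyl transferase, into the trachea in place of vehicle. All animals were wild type. The labels call the tissue trachea, whereas the study's methods describe bluntly dissected airways from which the trachea was left out. They do not say whether each library was 1 animal, and the OVA/LPS/Vehicle libraries carry the numbers 12, 34, 56 and 78, so p-values measure only the spread between these libraries, which may be technical.

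Smooth muscle shortens when the kinase Mylk phosphorylates the light chain of myosin, which lets the Myh11 heavy chain pull on filaments of Acta2 and Actg2 actin. Calponin, smoothelin, transgelin and leiomodin sit on the actin filaments, desmin links the contractile units to each other, and myocardin, acting through serum response factor at CArG boxes, switches on many of the genes for all of them. In the airway wall this muscle sets the calibre of the bronchi, and excess narrowing of it is the airway hyperresponsiveness of asthma.

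Because the CArG box joins the regulator Myocd to the other genes, the promoters of the 10 genes were searched on both strands for it. The box was taken as CC, then 6 bases that are each A or T, then GG, in the 250 bases before the start site. RefSeq promoter windows (build GRCm38.p6) were at hand for 6 of the 10 genes. None of the 6 held an exact box, against 1.47% of 32851 mouse windows. With 1 G or C allowed in the core, an allowance made after the exact search found nothing, Acta2 alone held a match, against 8.59% of windows. It held 2, both on the minus strand of chromosome 19 and 74 and 24 bases before the start site, and they are shown because Acta2 was the most abundant of the genes. Capitals mark the box in each 30-base stretch.
Acta2 upstream box, chr19:34255438-34255467: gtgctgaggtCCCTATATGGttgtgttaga
Acta2 downstream box, chr19:34255388-34255417: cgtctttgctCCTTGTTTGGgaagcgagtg
A match is a stretch of letters and not a bound site, and the search says nothing about windows of other lengths.

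Levels are given as FPKM, fragments scaled to transcript length and library depth. That scaling does not correct for differences in makeup between libraries, and results with libraries rescaled in other ways are given below. The deposited values implied 14513136 to 18632382 fragments per library. Differences are given as differences in group means of log2(FPKM + 1), which understate the change of genes of low level. A gene was called changed at a Benjamini-Hochberg adjusted p under 0.05 in limma, over the 14004 genes whose mean reached 0.5 FPKM. Of the 10 contractile genes 9 passed that filter. The 3 comparisons share libraries, so they are not independent of each other.

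Several libraries stood apart, and where 1 of them changes a result below, the value without it is given. OVA/LPS/GGsTop 4 had a summed level of the 10 genes of 1261 FPKM, against 539 to 875 FPKM in the other 10 libraries. It also had the highest cartilage marker sum (91.1 FPKM, with PBS 2 next at 88.3 FPKM), cardiac muscle marker sum (2744 FPKM, with OVA/LPS/GGsTop 2 next at 2414 FPKM) and fibroblast marker sum (459 FPKM, with PBS 2 next at 428 FPKM) and the lowest alveolar epithelium (4666 FPKM) and endothelium (482 FPKM) sums. PBS 3 differed from all others in how its levels followed GC content, with a slope of 0.53 log2 units per 10 percentage points of GC, whereas the other PBS and the OVA/LPS/GGsTop libraries lay between 0.05 and 0.11 and the OVA/LPS/Vehicle libraries between −0.26 and −0.19. Cartilage markers were nearly absent in PBS 3, OVA/LPS/GGsTop 1 and OVA/LPS/GGsTop 3, with sums of 1.83, 2.84 and 2.23 FPKM and Acan at 0 in each. The other libraries had sums of 13.9 to 91.1 FPKM. Which part of the airway the cartilage came from, and how much trachea any library held, was not tested. Alveolar markers such as Sftpc (3541 to 12502 FPKM) were present in every library. Thyroid and parathyroid markers reached 98.9, 268 and 539 FPKM in OVA/LPS/Vehicle 12, 34 and 56 and did not exceed 2.15 FPKM elsewhere. Adipocyte marker sums were 234 to 824 FPKM in OVA/LPS/Vehicle, 21.0 to 236 FPKM in PBS and 14.1 to 217 FPKM in OVA/LPS/GGsTop. None of the 6 adipocyte markers was called by limma in any comparison. In such bulk tissue, fewer muscle cells and less RNA per muscle cell cannot be told apart.

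**Figure D1:**
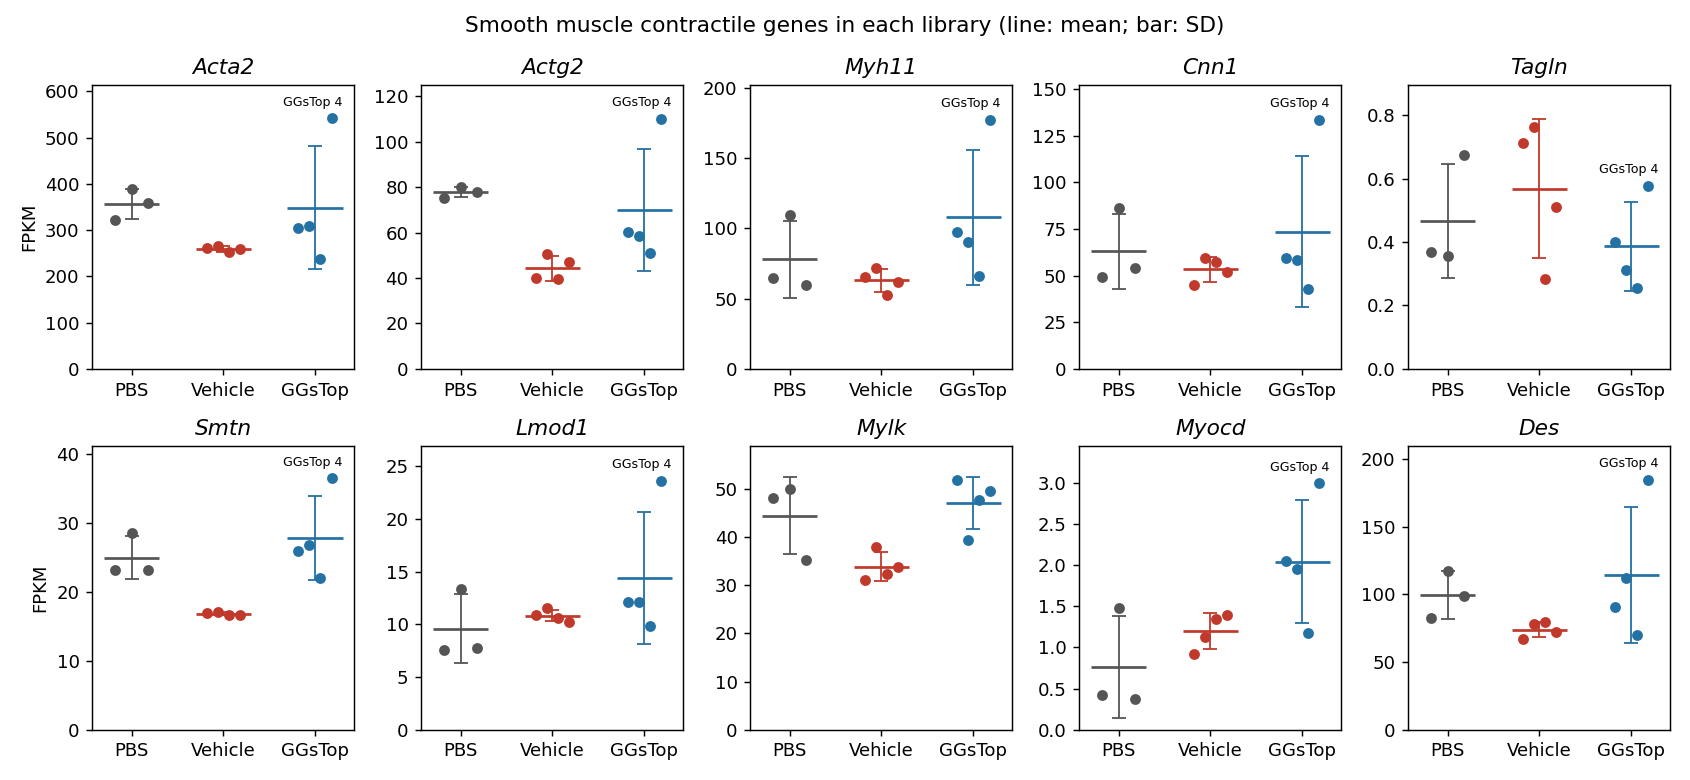
FPKM (vertical axis, linear from 0) of each of the 10 contractile genes in every library of the PBS (grey, n = 3), OVA/LPS/Vehicle (red, n = 4) and OVA/LPS/GGsTop (blue, n = 4) groups. Points are libraries, horizontal lines group means and bars SD. The rightmost blue point, OVA/LPS/GGsTop 4, is the highest of all 11 libraries for 8 of the 9 genes tested, and the red points lie close together for most genes.

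Acta2 was the most abundant of the contractile genes, and both actins were lower in every OVA/LPS/Vehicle library than in every PBS library. Acta2 (ENSMUSG00000035783), the alpha actin of smooth muscle, stood at 322, 388 and 358 FPKM in PBS, 261, 266, 252 and 259 FPKM in OVA/LPS/Vehicle and 304, 308, 238 and 542 FPKM in OVA/LPS/GGsTop. The PBS and OVA/LPS/Vehicle ranges did not overlap, whereas the OVA/LPS/GGsTop libraries held both the lowest and the highest of the 11 values. Actg2 (ENSMUSG00000059430), the gamma actin of visceral muscle, stood at 75.4, 79.9 and 77.7 FPKM in PBS, 40.0, 50.5, 39.5 and 47.2 FPKM in OVA/LPS/Vehicle and 60.4, 58.4, 51.2 and 110 FPKM in OVA/LPS/GGsTop. For this gene the 4 OVA/LPS/Vehicle libraries lay below all 7 others, although OVA/LPS/Vehicle 34 and OVA/LPS/GGsTop 3 differed by little.

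The motor and its kinase also had their lowest group mean in OVA/LPS/Vehicle, with more overlap. Myh11 (ENSMUSG00000018830), the myosin heavy chain particular to smooth muscle, stood at 64.5, 109 and 59.7 FPKM in PBS, 65.8, 71.6, 52.4 and 62.1 FPKM in OVA/LPS/Vehicle and 97.3, 90.6, 66.4 and 177 FPKM in OVA/LPS/GGsTop. PBS 2 was well above the other PBS libraries, which lay within the OVA/LPS/Vehicle range. Mylk (ENSMUSG00000022836), the myosin light chain kinase, stood at 48.1, 49.998 and 35.3 FPKM in PBS, 31.1, 38.0, 32.4 and 33.9 FPKM in OVA/LPS/Vehicle and 51.8, 39.3, 47.6 and 49.6 FPKM in OVA/LPS/GGsTop. PBS 3 alone of the PBS libraries reached into the OVA/LPS/Vehicle range, and Mylk was the only one of the 9 genes tested whose highest library was not OVA/LPS/GGsTop 4.

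Among the proteins bound to actin, smoothelin separated the groups most cleanly. Smtn (ENSMUSG00000020439), the smoothelin gene and a marker of contractile muscle, stood at 23.1, 28.5 and 23.2 FPKM in PBS, 16.8, 17.1, 16.7 and 16.6 FPKM in OVA/LPS/Vehicle and 25.9, 26.7, 22.0 and 36.4 FPKM in OVA/LPS/GGsTop. All OVA/LPS/Vehicle values were below all others, with a coefficient of variation of 1.2% among them. Cnn1 (ENSMUSG00000001349), the calponin that inhibits the myosin ATPase, stood at 49.0, 86.0 and 54.2 FPKM in PBS, 44.8, 59.5, 57.1 and 51.7 FPKM in OVA/LPS/Vehicle and 59.6, 58.5, 43.0 and 133 FPKM in OVA/LPS/GGsTop. Its 3 groups overlapped. Lmod1 (ENSMUSG00000048096), the leiomodin that starts new actin filaments, stood at 7.60, 13.4 and 7.78 FPKM in PBS, 10.9, 11.5, 10.6 and 10.2 FPKM in OVA/LPS/Vehicle and 12.1, 12.1, 9.83 and 23.6 FPKM in OVA/LPS/GGsTop. Unlike the genes above it had its lowest mean in PBS, where PBS 2 again exceeded the other libraries.

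Tagln (ENSMUSG00000032085), the transgelin or SM22 gene and usually a plentiful transcript of smooth muscle, was listed at only 0.367, 0.357 and 0.675 FPKM in PBS, 0.714, 0.764, 0.284 and 0.512 FPKM in OVA/LPS/Vehicle and 0.401, 0.312, 0.255 and 0.578 FPKM in OVA/LPS/GGsTop, which is 8 to 25 fragments per library. Its mean of 0.474 FPKM fell below the filter, and its groups overlapped. In an exact two-sided permutation test of log2(FPKM + 1), p was 0.629 between PBS and OVA/LPS/Vehicle, 0.257 between the exposed groups and 0.486 between PBS and OVA/LPS/GGsTop, where the smallest p possible was 0.0286. In the GENCODE annotation of GRCm38, 62.4% of the exon bases of Tagln were shared with Gm48529, a gene on the opposite strand with no value in the table, and 5.43% with Pcsk7 (mean 11.7 FPKM). Whether the authors' counting used strand is not given in the sources used here, so the level of Tagln is uncertain and whether overlap lowered it was not tested. Smaller overlaps with opposite-strand genes covered 16.3% of the exon bases of Smtn (Gm11946), 5.86% of Des (Gm15179) and 4.87% of Mylk (E130310I04Rik).

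Desmin and myocardin completed the set. Des (ENSMUSG00000026208), the intermediate filament protein of all muscle, stood at 82.6, 118 and 98.8 FPKM in PBS, 66.9, 77.8, 79.4 and 71.9 FPKM in OVA/LPS/Vehicle and 90.7, 112, 69.7 and 185 FPKM in OVA/LPS/GGsTop. Every OVA/LPS/Vehicle value was below every PBS value, by the small gap between 79.4 and 82.6 FPKM. Myocd (ENSMUSG00000020542), the coactivator, was the least abundant of the genes tested, at 0.424, 1.48 and 0.376 FPKM in PBS, 0.924, 1.13, 1.35 and 1.40 FPKM in OVA/LPS/Vehicle and 2.05, 1.95, 1.17 and 2.998 FPKM in OVA/LPS/GGsTop. PBS 1 and PBS 3 were the lowest of the 11 libraries and PBS 2 was higher than any OVA/LPS/Vehicle library. Des and Myocd are also genes of heart muscle, and the sum of the cardiac muscle markers was 96.9, 2032 and 145 FPKM in the 3 PBS libraries, 1006 to 1639 FPKM in OVA/LPS/Vehicle and 633 to 2744 FPKM in OVA/LPS/GGsTop. PBS 2 was thus the highest PBS library for cardiac markers, and it was also the highest for every contractile gene tested. The part of cardiac tissue in these values was not tested.

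The first comparison asked how the OVA/LPS exposures changed the contractile genes. Actg2 and Smtn fell in OVA/LPS/Vehicle against PBS. No contractile gene rose in the main limma fit, by adjusted p or at an unadjusted p under 0.05. None rose by limma voom on the recovered fragments either. In a limma fit with array weights, Myocd was called higher (0.58, adjusted p = 0.00773). Actg2 averaged 77.7 ± 2.24 FPKM in PBS (SD, n = 3) and 44.3 ± 5.45 FPKM in OVA/LPS/Vehicle (SD, n = 4), which is a log2 difference of −0.80 (SE 0.22, 95% interval −1.28 to −0.33, adjusted p = 0.0159). Smtn went from 24.9 ± 3.07 FPKM to 16.8 ± 0.202 FPKM, a log2 difference of −0.54 (SE 0.15, adjusted p = 0.0165). The 2 calls among 9 genes compare with a background of 38% of all 14004 genes called, 22.1% lower and 15.9% higher (2231 of 5327 called genes higher, and 1232 of 5803 when libraries were rescaled to the same FPKM total). By sign, 7 of the 9 genes were lower and 2 higher, and 4 (Acta2, Actg2, Smtn and Des) were lower without overlap, against 25.4% of all genes lower and 18.7% higher without overlap. The median log2 difference of the 9 genes was −0.37, and that of all genes tested was −0.01.

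The other contractile genes did not pass the test in that comparison. Mylk came nearest, at 44.5 ± 8.02 FPKM in PBS and 33.8 ± 2.98 FPKM in OVA/LPS/Vehicle (log2 difference −0.37, SE 0.14, adjusted p = 0.0564). Acta2, at 356 ± 33.0 FPKM and 259 ± 5.68 FPKM, had a log2 difference of −0.45 (SE 0.22, adjusted p = 0.126), and it was called when OVA/LPS/GGsTop 4, which is in neither group but shares the estimate of spread, was left out (adjusted p = 0.0194). Des, Myh11 and Cnn1 had log2 differences of −0.41, −0.26 and −0.20 with adjusted p of 0.225, 0.5004 and 0.628. Lmod1 (0.20, adjusted p = 0.549) and Myocd (0.37, adjusted p = 0.216) had positive values. Without PBS 2, Myocd was called higher (0.65, adjusted p = 0.0259) and Myh11 and Cnn1 turned to 0.01 and 0.04, and without PBS 3 Mylk was called lower (−0.53, adjusted p = 0.0163) and Actg2 was not called (adjusted p = 0.0507).

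Both calls depended on how GC content was handled. Exons of Smtn held 60.1% GC, the 95.8th percentile of the genes tested, whose median was 49.95%, and the 9 genes tested ranged from 49.6% to 60.1%. When each library was corrected for its own relation to GC, the difference of Smtn shrank to −0.14 (adjusted p = 0.584), and that of Actg2 to −0.65 (adjusted p = 0.0523). This left 0 of 9 called by limma and 1 with an unadjusted p under 0.05, while 3001 of all genes were still called, 1135 of them higher. The median of the 9 genes was then −0.11. Without the correction, 3 of the 9 were lower at an unadjusted p under 0.05, beside 3863 of all 14004 genes lower and 3080 higher. Markers of other cells moved in this comparison too: of 10 vascular mural markers (pericytes and vascular muscle), 4 were called lower and 1 higher, and their sum was 331 to 451 FPKM in PBS and 249 to 277 FPKM in OVA/LPS/Vehicle. Of the 7 endothelial markers 4 were called lower, with sums of 918 to 1690 FPKM and 674 to 839 FPKM. Airway epithelium had 6 of 10 markers called higher, cardiac muscle 4 of 11 and thyroid 2 of 4, with 0 lower. Alveolar epithelium had 3 of 7 called lower and fibroblasts 2 of 10, with 0 higher. These counts are without the GC correction, where 22.1% of all genes were called lower and 15.9% higher. The part of vessels or other tissue in the fall of Actg2 and Smtn was not tested.

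**Figure D2:**
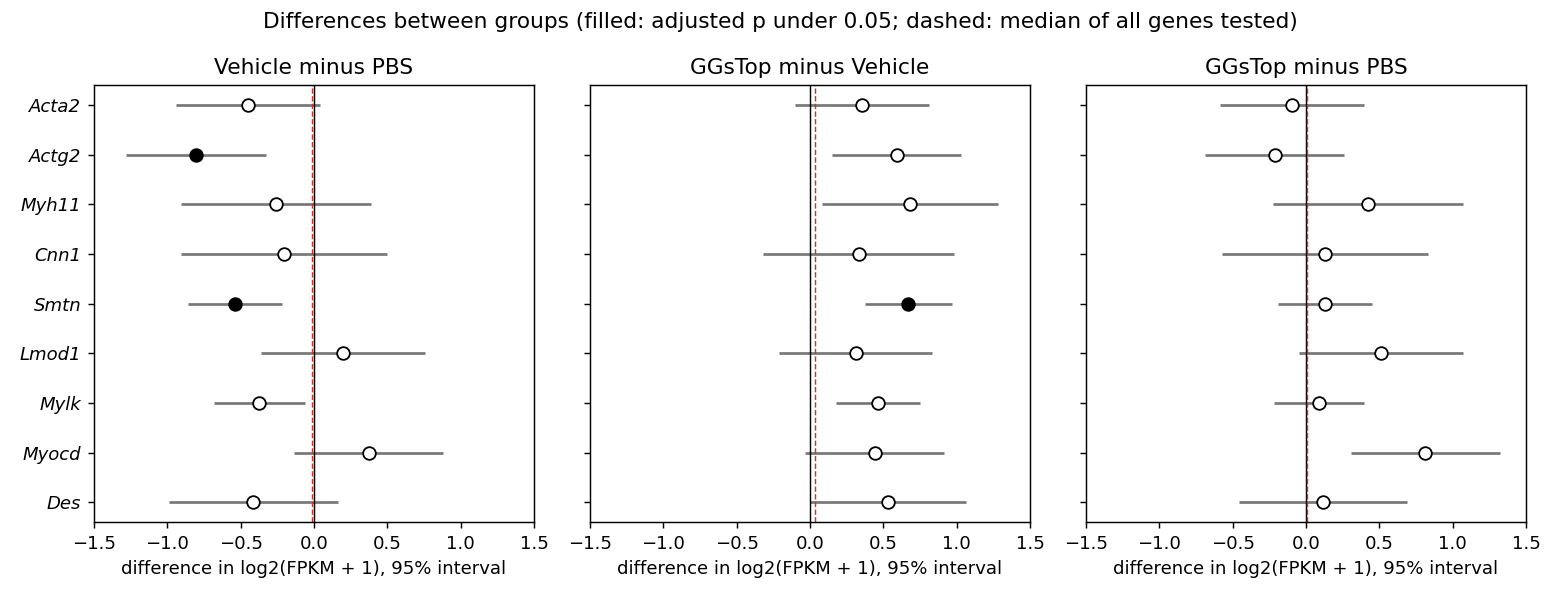
Difference in mean log2(FPKM + 1) (horizontal axis) of the 9 contractile genes tested, for each of the 3 comparisons, with 95% intervals from limma. Filled points passed an adjusted p of 0.05, and the dashed line is the median of all 14004 genes tested. Only Actg2 and Smtn are filled in OVA/LPS/Vehicle minus PBS, only Smtn in OVA/LPS/GGsTop minus OVA/LPS/Vehicle and none in OVA/LPS/GGsTop minus PBS.

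The second comparison asked what GGsTop did in the exposed mice. Smtn rose, from 16.8 ± 0.202 FPKM to 27.8 ± 6.12 FPKM (SD, n = 4 each), a log2 difference of 0.67 (SE 0.14, 95% interval 0.37 to 0.97, adjusted p = 0.0223). It was the single call among the 9 genes, against 8.71% of all genes called, 6.9% higher and 1.81% lower. That split depended on scaling: 966 of 1220 called genes were higher, but 344 of 698 with libraries rescaled to the same median and 2025 of 2180 with the same total, and Smtn was called with each. All 9 had positive differences, with a median of 0.46 (0.30 without OVA/LPS/GGsTop 4) against 0.03 for all genes tested, and Actg2, Smtn and Mylk were higher without overlap, against 17.3% of all genes (12.4% lower). Mylk, at 47.1 ± 5.45 FPKM under GGsTop, lay at the threshold (0.46, SE 0.13, adjusted p = 0.0501).

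Actg2 reached 70.0 ± 27.0 FPKM under GGsTop (0.59, SE 0.20, adjusted p = 0.0807). Myh11 reached 108 ± 48.2 FPKM, with a difference of 0.68, an SE of 0.27 and an adjusted p of 0.122. Des, Myocd, Acta2, Cnn1 and Lmod1 had differences between 0.31 and 0.53 with adjusted p of 0.165 to 0.465. With all 4 GGsTop libraries, the SD of log2(FPKM + 1) was largest in OVA/LPS/GGsTop for 7 of the 9 genes. It was smallest in OVA/LPS/Vehicle for 8 of 9. OVA/LPS/GGsTop 4, the highest library for 8 of the 9 genes, is part of that spread, and the SDs without it were not computed. The other GGsTop libraries spanned 66.4 to 97.3 FPKM for Myh11, against 59.7 to 109 FPKM in PBS. For Des they spanned 69.7 to 112 FPKM, against 82.6 to 118 FPKM in PBS.

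One GGsTop library carried much of the height of these means. OVA/LPS/GGsTop 4 exceeded the next highest of the 11 libraries by a factor of 1.28 for Smtn to 1.77 for Lmod1 in the 8 genes it led. Without it the difference of Smtn was 0.54 (adjusted p = 0.0293), that of Mylk 0.43, Myh11 0.41, Actg2 0.35, Myocd 0.30, Des 0.27, Acta2 0.12, Lmod1 0.06 and Cnn1 0.00. Smtn was not called without OVA/LPS/Vehicle 34 (adjusted p = 0.0619), OVA/LPS/Vehicle 56 (0.0746), OVA/LPS/Vehicle 78 (0.0578) or OVA/LPS/GGsTop 1 (0.0714), with differences of 0.66 to 0.69. After the GC correction it was 0.39 (adjusted p = 0.189), and limma called 0 of 9 genes, with 2 of them at an unadjusted p under 0.05. Over all genes 313 were then called, 252 of them higher. Without the correction, 4 of the 9 were higher at an unadjusted p under 0.05, beside 2783 of all 14004 genes higher and 1534 lower. Cartilage, cardiac and fibroblast sums were highest in OVA/LPS/GGsTop 4, by the margins over other libraries given above, and their part in its levels was not tested.

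**Figure D3:**
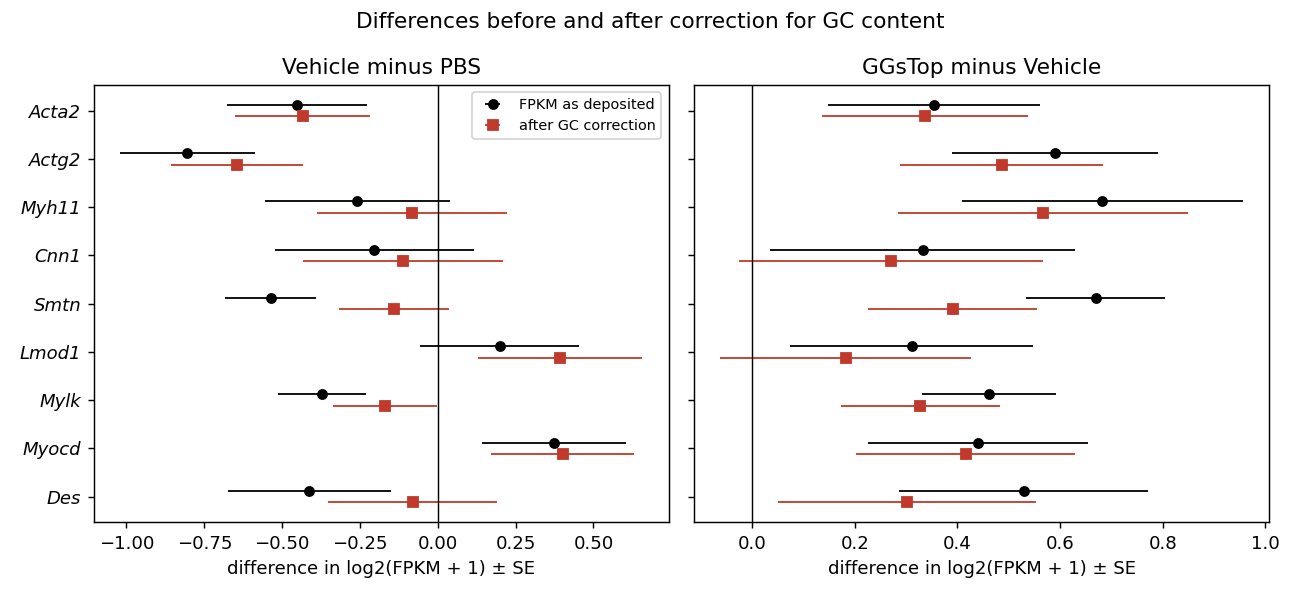
Difference in mean log2(FPKM + 1) with its SE (horizontal axis) for the 9 contractile genes, from FPKM as deposited (black circles) and after a correction of each library for GC content (red squares). Smtn moves most, from −0.54 to −0.14 in OVA/LPS/Vehicle minus PBS and from 0.67 to 0.39 in OVA/LPS/GGsTop minus OVA/LPS/Vehicle, while Acta2 and Myocd hardly move.

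The third comparison set OVA/LPS/GGsTop beside PBS. None of the 9 genes was called by limma, against 2.88% of all genes called, 2.06% higher and 0.821% lower, and limma voom called 0 as well. Of the 9 genes 1 was higher at an unadjusted p under 0.05, beside 1502 of all 14004 genes higher and 1371 lower. Of all 403 genes called 288 were higher, and 251 of 495 with the total rescaling. The gene with an unadjusted p under 0.05 was Myocd, at 0.759 ± 0.622 FPKM in PBS (n = 3) and 2.04 ± 0.747 FPKM in OVA/LPS/GGsTop (n = 4), with a log2 difference of 0.81 (SE 0.23, 95% interval 0.30 to 1.32, adjusted p = 0.0811). It was called without PBS 2 (1.09, adjusted p = 0.0116) and without OVA/LPS/GGsTop 3 (0.96, adjusted p = 0.0332). Of the others, Lmod1 and Myh11 had differences of 0.51 and 0.42 (adjusted p = 0.285 and 0.431). Smtn (0.13, 95% interval −0.19 to 0.45) and Mylk (0.09, −0.22 to 0.40) were near 0, and the actins were slightly negative, Acta2 at −0.10 (−0.59 to 0.39) and Actg2 at −0.21 (−0.69 to 0.26). Intervals of this width allow changes in either direction, so equality of the groups was not shown. Each of the 9 genes overlapped between the groups, whereas 7.22% of all genes were higher and 7.54% lower without overlap.

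**Figure D4:**
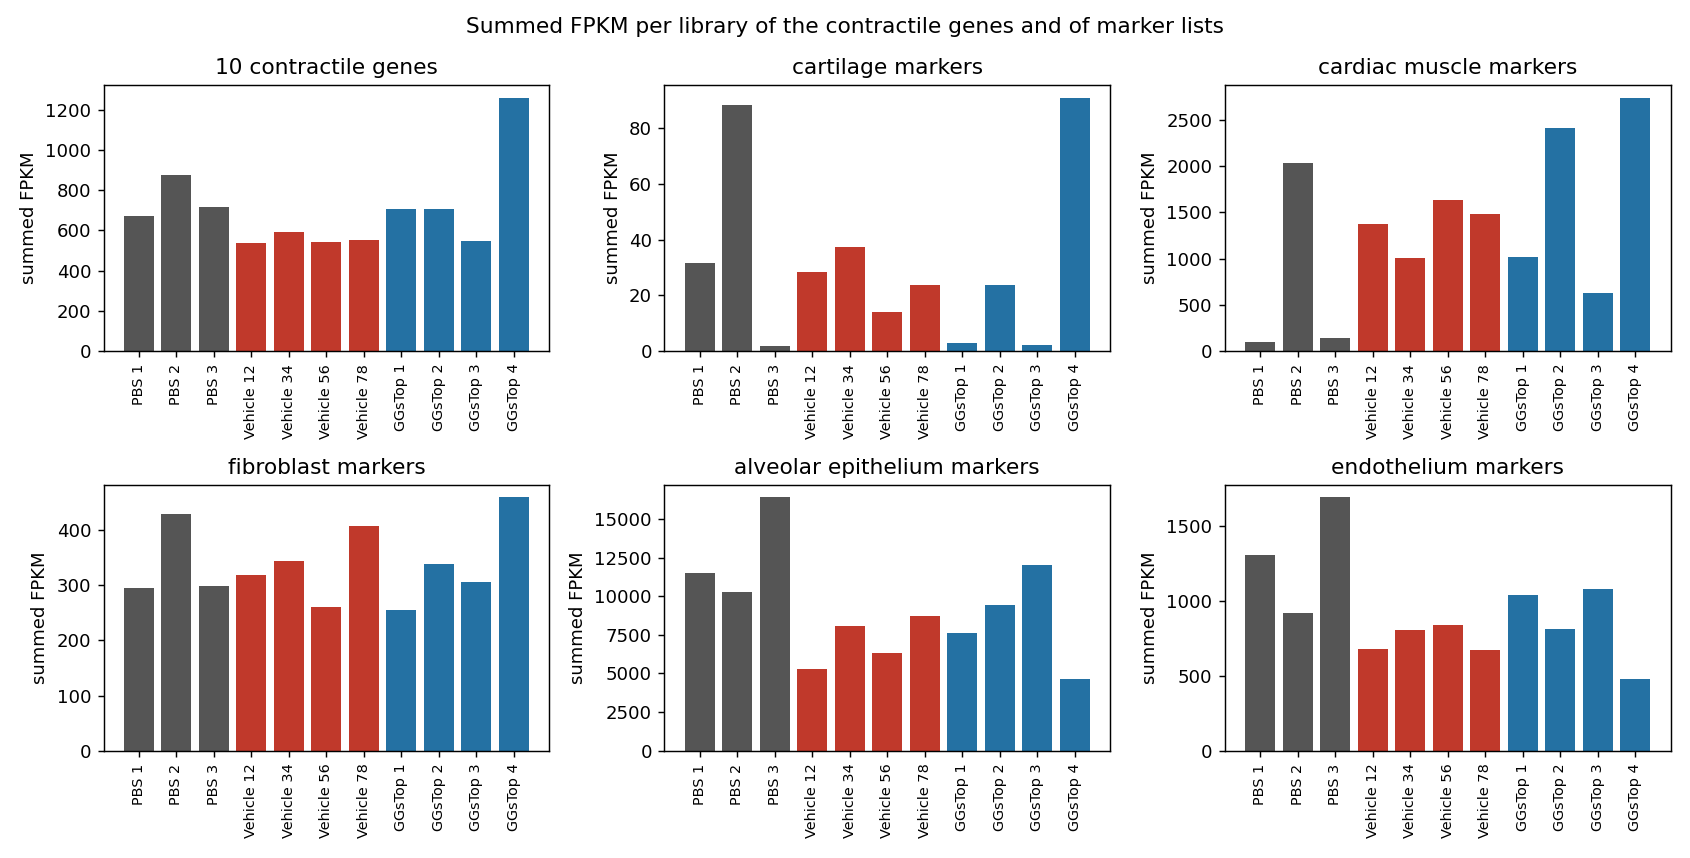
Summed FPKM per library (vertical axes, linear from 0) of the 10 contractile genes and of 5 marker lists, in PBS (grey), OVA/LPS/Vehicle (red) and OVA/LPS/GGsTop (blue). OVA/LPS/GGsTop 4 is highest for the contractile genes (1261 FPKM), cartilage, cardiac muscle and fibroblasts and lowest for alveolar epithelium and endothelium.

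Since the amount of muscle in a dissected airway varies, each gene was also set against Acta2 in the same library. Actg2 was 21.9% ± 1.42 of Acta2 in PBS, 17.1% ± 1.84 in OVA/LPS/Vehicle and 20.2% ± 1.07 in OVA/LPS/GGsTop (SD, n = 3, 4 and 4). Lmod1 was 2.66% ± 0.687 of Acta2 in PBS, 4.16% ± 0.156 in OVA/LPS/Vehicle and 4.10% ± 0.196 in OVA/LPS/GGsTop, with both exposed groups above all PBS libraries. Myocd was 0.205% ± 0.152, 0.464% ± 0.0900 and 0.588% ± 0.0810 in the same order, and PBS 2 (0.380%) overlapped with OVA/LPS/Vehicle. Smtn was 6.997% ± 0.453, 6.48% ± 0.0960 and 8.29% ± 1.09, and in OVA/LPS/GGsTop 4 it was 6.72%, against 8.51% to 9.25% in the other GGsTop libraries. All these ratios came from FPKM without the GC correction. Smtn (60.1% GC) and Acta2 (49.6% GC) differ in GC content, and the GC slopes differed between the groups. The part of GC in the Smtn ratio was not tested. Myh11 was 21.6% ± 5.92, 24.2% ± 2.60 and 30.5% ± 2.27. In 24 exact two-sided permutation tests of these ratios the lowest p was 0.0286, the smallest such groups of 3 or 4 libraries allow, and no adjusted p was below 0.137. With that lower limit and 24 tests, no ratio could have passed by itself, so these tests cannot show that the ratios were unchanged.

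**Figure D5:**
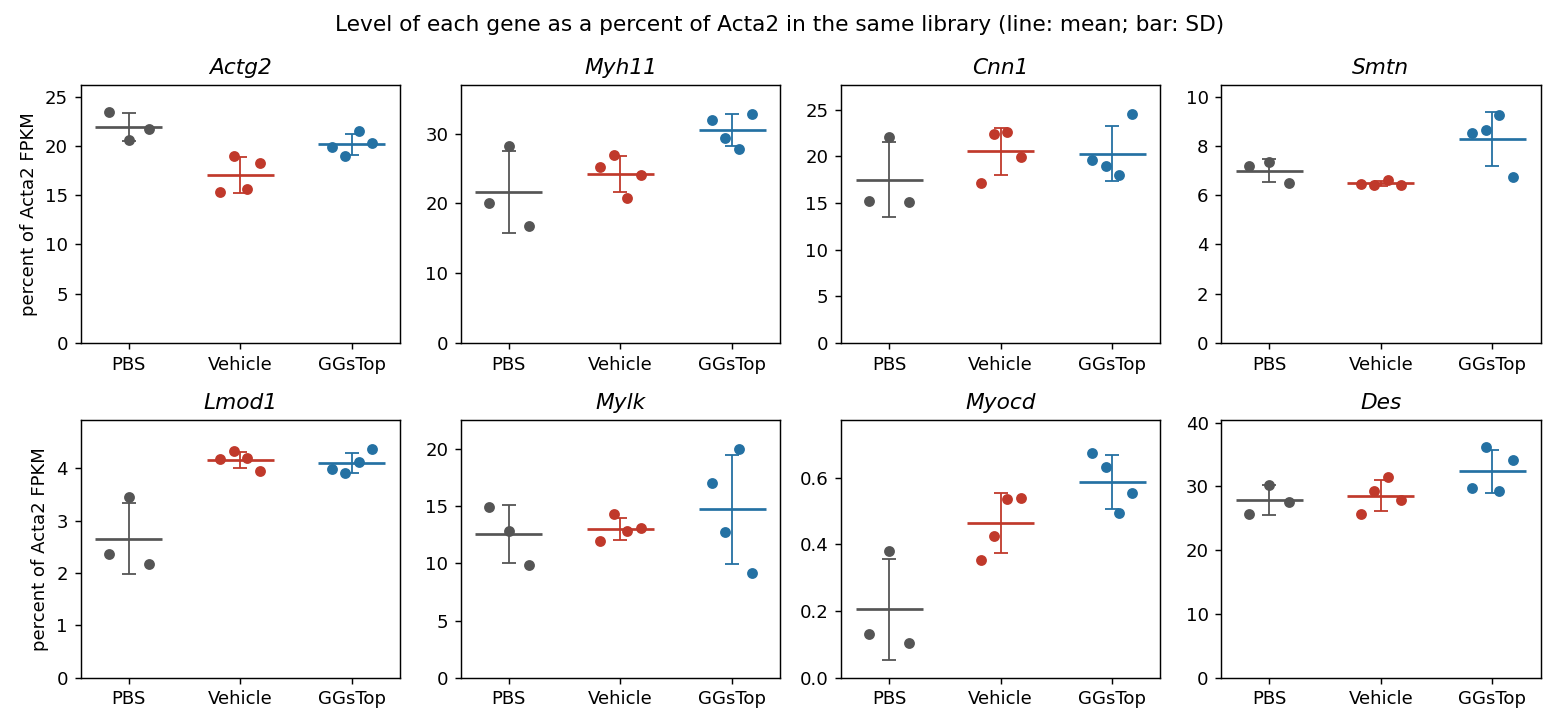
FPKM of 8 contractile genes as a percent of Acta2 FPKM in the same library (vertical axis, linear from 0), by group, with points for libraries, lines for means and bars for SD. Lmod1 lies above all PBS libraries in both exposed groups, and Smtn in OVA/LPS/GGsTop 4, the rightmost blue point, lies near the PBS range and not with the other blue points.

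The 9 genes varied together to differing degrees. Over the 11 libraries, the Pearson correlation of log2(FPKM + 1) between pairs ranged from 0.18 to 0.94 with a median of 0.74 over 36 pairs, and without OVA/LPS/GGsTop 4 from −0.31 to 0.90 with a median of 0.56. Myh11 followed the mean of the other genes most closely (r = 0.96, and 0.89 without OVA/LPS/GGsTop 4). Mylk (0.60) and Myocd (0.60) had the lowest values, but without OVA/LPS/GGsTop 4 these were Myocd (0.27) and Lmod1 (0.40, from 0.78), with Actg2 at 0.59 and Mylk at 0.61. Among genes outside the set, those most like the mean of the 9 scaled genes were Kank1 (r = 0.97 over 11 libraries, 0.90 without OVA/LPS/GGsTop 4), Emd (0.95), Itga11 (0.95), Auts2 (0.94), Ppp1r12b (0.93), Carns1 (0.93), Adcy5 (0.93), Maged1 (0.92), Stum (0.92) and Hmcn2 (0.91). Ppp1r12b, a regulatory subunit of the phosphatase that acts on myosin light chain, was at 9.31 to 17.2 FPKM in PBS. It was at 9.01 to 10.5 FPKM in OVA/LPS/Vehicle and 10.6 to 20.3 FPKM in OVA/LPS/GGsTop. Between the exposed groups it was not called by limma (0.51, adjusted p = 0.120), and 17.3% of all genes were higher there without overlap. The libraries share depth and tissue makeup across genes, so these correlations are descriptions.

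Genes around the contractile apparatus were read from 2 gene lists, of thin filament and dense plaque proteins (31 of 32 tested) and of regulators of serum response factor and myocardin (25 of 27 found and tested). Some genes of the plaques that anchor actin to the cell membrane were called in opposite directions in the first and second comparisons, which share the OVA/LPS/Vehicle libraries. Of 31 genes, 9 fell and 1 rose in OVA/LPS/Vehicle against PBS (median −0.19), and 8 rose and none fell by limma's adjusted p under GGsTop (median 0.22), with 1 lower at an unadjusted p under 0.05 and none by limma voom. Over all genes 22.1% fell and 15.9% rose in the first comparison and 6.9% rose in the second. The median of the list was −0.0004 without PBS 2 in the first comparison and 0.11 without OVA/LPS/GGsTop 4 in the second. Zyx, the plaque protein zyxin, fell from 54.7 ± 9.98 to 27.1 ± 2.86 FPKM (−0.98, adjusted p = 0.00337) and rose to 50.2 ± 2.30 FPKM under GGsTop (0.87, adjusted p = 0.00842). Vcl, vinculin, fell from 21.4 ± 3.002 to 11.4 ± 1.19 FPKM (−0.86, adjusted p = 0.00337) and stood at 18.2 ± 0.917 FPKM under GGsTop. Itga5, a fibronectin receptor subunit, was at 23.8 ± 1.99, 14.5 ± 1.09 and 23.2 ± 1.01 FPKM in the 3 groups (0.64 under GGsTop, adjusted p = 0.00842). These genes are expressed by many cell types besides muscle. After the GC correction Zyx, Vcl and Itga5 were still called in both comparisons, and 9 genes of the list were lower, then 5 higher. Over all genes that correction left 3001 called in the first comparison, 1135 of them higher, and 313 in the second, 252 of them higher.

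Of the 25 regulators, 11 fell and 3 rose in OVA/LPS/Vehicle against PBS (median −0.41, and −0.13 with the GC correction), beside 22.1% and 15.9% of all genes. Notch3, a receptor of vascular and other muscle, fell from 21.7 ± 7.72 to 8.75 ± 1.22 FPKM (−1.17, adjusted p = 0.00413), and Smad3, which relays TGF-beta signals, from 15.8 ± 2.70 to 9.39 ± 0.513 FPKM (−0.68, adjusted p = 0.00408). Under GGsTop 3 rose, beside 6.9% of all genes, and the median of the list was 0.20. None fell in the main limma fit, by adjusted p or at an unadjusted p under 0.05, or by voom without size factors. Those that rose included Mef2d, from 17.3 ± 1.996 to 26.7 ± 2.98 FPKM (0.60, adjusted p = 0.0198), and Tead3, from 3.64 ± 0.358 to 6.06 ± 0.675 FPKM (0.60, adjusted p = 0.0304). With the GC correction 7 fell and 1 rose in the first comparison, where 3001 of all genes were called, 1135 of them higher. In the second comparison 0 were called by limma, against 313 of all genes, and 6 were higher at an unadjusted p under 0.05. Some other settings called genes lower under GGsTop. With array weights 3 plaque genes and 3 regulators were lower, beside 10 and 11 higher. With only the 2 groups compared 2 and 1 were lower, beside 9 and 8 higher. Over both lists, the 11 genes called under GGsTop became 19 without PBS 3 (17 higher) and 7 without OVA/LPS/Vehicle 12. They became 4 without OVA/LPS/Vehicle 78 or OVA/LPS/GGsTop 3 and 2 without OVA/LPS/Vehicle 34, OVA/LPS/Vehicle 56 or OVA/LPS/GGsTop 1. No gene of the lists was called by limma or by limma voom in OVA/LPS/GGsTop against PBS, and 8 were called without PBS 2 (5 higher). At an unadjusted p under 0.05, 4 of 31 plaque genes (1 higher) and 6 of 25 regulators (3 higher) differed. Over all 14004 genes, 1502 were higher and 1371 lower at that level. The smallest adjusted p there was that of Cnn2, a calponin found outside muscle too, at 142 ± 11.01 FPKM in PBS and 106 ± 12.4 FPKM under GGsTop (−0.42, adjusted p = 0.0723).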

How the data were processed

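RNA-seq of poly(A) RNA from mouse airway tissue was analysed in 11 libraries (3 PBS, 4 OL, 4 OLG). FPKM values were deposited by the authors in 1 table. The submitters' processing notes name cutadapt 1.15, HISAT2 2.0.5, HTSeq 0.9.1 and build mm39, and the annotation release is not given in the sources used here. Of 21899 gene IDs, 21795 matched a symbol in the GENCODE annotation of GRCm38, which also gave exon length and GC. With those lengths, 97.53% of genes came out as whole fragments in every library (tolerance 0.01), and these implied the depths. Fragment counting gives genes of few fragments, such as Tagln, low precision.

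The 14004 genes whose mean over the libraries reached 0.5 FPKM entered 1 limma 3.58.1 fit (R 4.3.3) of log2(FPKM + 1) with 3 group means, a mean-variance trend and Benjamini-Hochberg adjustment over all genes. On simulated data for OLG against OL over 14004 genes, 86 of 100 changes of size 1 and 99 of 100 of size 2 (log2) were recovered, with 14 false calls. The changes were planted only in genes with a mean log2(FPKM + 1) above 2, with independent noise and no GC trend. The contractile genes differed by 0.31 to 0.68 in that comparison, less than any planted change, so recovery of such differences was not tested. Alternatives covered the pseudocount (0.1), the filter (1 FPKM or none), rescaling, trend, robust fitting, array weights, 2 groups only, a GC spline with 5 degrees of freedom, voom on recovered fragments, each library left out and a replicate block. PBS and OLG libraries with the same number deviated together (correlations of 0.37, 0.43 and 0.43), although PBS 1 also did so with OLG 3 (0.46) and PBS 3 with OLG 1 (0.22). By the rule that every same-numbered pair exceed 0.1, numbers 1 to 3 were treated as pairs in the blocked fit, a pairing that comes from the data and not from the labels. OLG 4, which has no PBS partner, had a term of its own in that fit, so it did not bear on the blocked differences. Named genes were the 10 contractile genes, the 2 with the smallest p per wider list and comparison, the 10 most correlated genes, the 3 highest of each marker list, and annotated neighbours. The genes and lists were chosen with earlier results of these data known. A further gene list is not reported here.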

Additional observations from a re-analysis of the deposited data

How the results depend on the processing

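Each value below was recomputed with 1 choice changed at a time, except where 2 are named together. The number of contractile genes called in OL against PBS was 2, and 4 with rescaling to the same FPKM total, 4 with array weights (3 lower, and Myocd higher), 4 without PBS 3 and OLG 4 together (an alternative chosen after seeing the data, as were voom with median-ratio size factors and all those of the wider lists) and 0 with the GC correction. In OLG against OL it was 1, and 2 with a minimum mean of 1 FPKM, 3 with the total rescaling, 4 with array weights, 2 with only the 2 groups compared, 0 with the GC correction and 3 without PBS 3 and OLG 4. In OLG against PBS it was 0, and 2 with array weights and 1 with the replicate block and GC correction (Myocd, 0.68, adjusted p = 0.0482). The replicate block alone left it at 0 and raised the count of all genes called from 403 to 670, and to 827 with the GC correction. Leaving out 1 library at a time gave 2 to 3, 0 to 2 and 0 to 1 contractile genes in the 3 comparisons, and 3064 to 6440, 24 to 3591 and 29 to 1597 of all genes. The extremes for all genes were reached without PBS 3 (3064 and 3591), OLG 1 (24), PBS 1 (29) and PBS 2 (1597). The count of all genes was 5327 in OL against PBS (3001 with the GC correction). It was 1220 in OLG against OL, and 2180 with the total rescaling, 698 with the median rescaling, 5214 with array weights, 3525 with 2 groups, 313 with the GC correction, 3812 without PBS 3 and OLG 4 and 770 with voom and size factors. In OLG against PBS it was 208 with no filter, 2557 with array weights, 39 with 2 groups, 609 with the GC correction and 44 without PBS 3 and OLG 4. The wider lists had 24, 11 and 0 genes called. In OLG against OL the count was 18 with the total rescaling, 7 with the median rescaling and 27 with array weights (21 higher). It was 20 with 2 groups (17 higher), 5 with the GC correction, 23 without PBS 3 and OLG 4 (20 higher) and 6 with voom and size factors. Where no split is given, all were higher. In OLG against PBS it was 2 with the total rescaling (0 higher) and 9 with array weights (4 higher). It was 18 to 30, 2 to 19 and 0 to 8 when 1 library was left out. Directions turned for Cnn1 in OL against PBS (0.0578 with array weights), and in OLG against PBS for Mylk (−0.0194 with array weights), for Cnn1 (−0.20), Smtn (−0.0017) and Des (−0.15) with the replicate block, for Cnn1 (−0.16) and Des (−0.0357) with block and GC correction, and for Myh11 (−0.0068), Cnn1 (−0.29), Smtn (−0.049), Mylk (−0.0923) and Des (−0.14) without PBS 3 and OLG 4. Leaving out 1 library also turned directions, with ranges in OL against PBS of −0.4201 to 0.0121 for Myh11 and −0.3608 to 0.0383 for Cnn1 (both without PBS 2), and in OLG against PBS of −0.3336 to 0.0604 for Acta2 (without OLG 3), −0.1998 to 0.3704 for Cnn1, −0.0017 to 0.2315 for Smtn and −0.1456 to 0.3193 for Des (without OLG 4, and PBS 1 for Cnn1 and Des), and −0.065 to 0.1809 for Mylk (without PBS 3). The reversals with the replicate block alone are the same as those without OLG 4, because the block gives that library its own term. They are therefore not a separate check. Total rescaling moved the median of all genes to −0.15 in OL against PBS and 0.11 in OLG against OL. The cause of these shifts was not tested.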
